A study of Mus musculus with 9 samples.

Results

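Genes of the Kruppel-like factor family were followed in RAW264.7 cells, an established mouse macrophage-like line, through M1 polarization with and without potassium iodide. The members are the 10 genes Klf2, Klf3, Klf4, Klf6, Klf7, Klf9, Klf10, Klf11, Klf13 and Klf16, listed by symbol. All 10 of 10 are among the 12474 rows of each library, and all 10 passed the filter on low values, at least 0.5 FPKM in at least 3 libraries. Libraries of group I came from wild-type RAW264.7 cells given lipopolysaccharide (LPS) at 100 ng/ml, mouse interferon gamma at 50 ng/ml and potassium iodide at 20 mM. Libraries of group M1 came from the same line with LPS and interferon gamma at those doses and no iodide. Mock libraries are the untreated reference of that line. There were 3 libraries per group, all of poly(A) RNA, and the duration of treatment is not given in the sources used here. The labels do not say whether libraries of a group are separate cultures, so the p-values speak only of the spread among these libraries, which could be technical. No library received another salt, so the parts of iodide, of potassium and of osmolarity cannot be told apart.

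Kruppel-like factors are transcription factors that bind GC-rich and CACCC sequences through zinc fingers at the C-terminal end of the protein, and that differ in their N-terminal parts, which recruit coactivators or corepressors. In macrophages KLF2 is known as a brake on NF-kB activity that competes for acetyltransferase coactivators, and KLF4 is known to favour alternative (M2) activation and to restrain M1 genes. KLF6 is known to promote inflammatory gene expression. KLF10 and KLF11 are TGF-beta-inducible repressors that work through the SIN3 corepressor, KLF9 is a glucocorticoid-responsive gene, KLF3 is a repressor that recruits CtBP, and KLF13 was described as a regulator of Ccl5 in T lymphocytes.

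Each member lies on a different chromosome. In the GENCODE annotation of GRCm38, Klf2 is at chromosome 8, 72319033 to 72321656, Klf4 at chromosome 4, 55527143 to 55532466, Klf6 at chromosome 13, 5861482 to 5870394, Klf10 at chromosome 15, 38291463 to 38300706, and Klf13 at chromosome 7, 63886351 to 63938915. Promoter windows from RefSeq (GRCm38.p6), 250 bases before to 50 after a gene's start, were matched by symbol for 8 of the 10 members, and Klf10 and Klf16 had no entry. The windows of Klf2, Klf4 and Klf6 are shown because these genes carry the main results below, with the first pair lower in M1 and the last higher. They are chr8:72318812-72319111 on the plus strand for Klf2, chr4:55532426-55532725 on the minus strand for Klf4 and chr13:5861239-5861538 on the plus strand for Klf6. Capitals mark a match to the MEF2 motif (CTA, any 4 bases, TAG) in Klf2, matches to the GC box GGGCGG in Klf4 and matches to the CCAAT box in Klf6, on either strand, with overlapping matches counted apart.
Klf2: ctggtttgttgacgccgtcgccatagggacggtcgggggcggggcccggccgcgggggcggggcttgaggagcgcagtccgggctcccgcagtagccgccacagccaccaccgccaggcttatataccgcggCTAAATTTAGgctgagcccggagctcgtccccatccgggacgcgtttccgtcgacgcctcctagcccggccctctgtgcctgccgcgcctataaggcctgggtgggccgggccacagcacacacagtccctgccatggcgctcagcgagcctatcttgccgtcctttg
Klf4: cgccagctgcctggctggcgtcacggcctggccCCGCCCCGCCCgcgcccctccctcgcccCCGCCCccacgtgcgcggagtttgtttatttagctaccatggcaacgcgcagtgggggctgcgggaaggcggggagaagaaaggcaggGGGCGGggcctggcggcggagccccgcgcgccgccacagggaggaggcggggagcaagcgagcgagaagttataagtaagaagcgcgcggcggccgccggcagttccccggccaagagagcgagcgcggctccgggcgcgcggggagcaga
Klf6: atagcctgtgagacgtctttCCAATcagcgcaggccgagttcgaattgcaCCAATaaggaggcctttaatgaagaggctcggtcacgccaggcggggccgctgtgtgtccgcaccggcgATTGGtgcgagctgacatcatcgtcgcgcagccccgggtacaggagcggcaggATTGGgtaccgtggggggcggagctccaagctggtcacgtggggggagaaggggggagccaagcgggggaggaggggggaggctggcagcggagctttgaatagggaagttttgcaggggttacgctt

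The MEF2 motif, the binding sequence of the MEF2 factors that act under the kinases MEK5 and ERK5, was found in the Klf2 window, 118 bases before the start, and in no other of the 8 windows. It is present in 3.7% of the 32851 mouse promoter windows of the same length. GC boxes were found in 7 of the 8 windows, Klf9 being the exception, against 35.7% of all windows. The CACCC motif was in 5 of the 8 against 57.5% of all, and the CCAAT motif in 4 of the 8 against 37.4%. The cyclic AMP response core TGACG was in 5 of the 8 against 20.8% of all. A kappaB motif (GGG, any 4 bases, TCC) was found in 2 of the 8 windows, those of Klf11 and Klf13, against 19.2% of all. A TATA motif (TATAAA) was found in 0 of the 8, against 13.6% of all. These matches describe letters in the windows and were not tested as sites.

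The values are FPKM, fragments scaled by exon length and library total, so levels can be set side by side between genes per length. Library totals recovered from the values were 18370400 to 21202240 fragments in I, 17765680 to 21867430 in M1 and 17431070 to 25470730 in Mock, and for a gene of 1 kb each fragment adds 0.0393 to 0.0574 FPKM. Of 12 macrophage markers 11 are in the files and Cd163 was not analysed here. The markers had summed levels of 2460 to 2570 FPKM in I, 3360 to 3470 in M1 and 4720 to 4810 in Mock. The place of Mock in that order is set by Lyz2, the lysozyme gene, at 675 ± 24 FPKM in I, 1140 ± 31 in M1 and 3150 ± 43 in Mock. The other 10 markers summed to 1800 to 1870 FPKM in I, 2240 to 2290 in M1 and 1600 to 1610 in Mock. The largest of those was Cd14, at 1330 ± 35 FPKM in I, 1550 ± 27 in M1 and 752 ± 9.9 in Mock. Csf1r ran the other way, at 96.1 ± 1.4 FPKM in I, 69.8 ± 1 in M1 and 343 ± 3.4 in Mock. Mertk did not pass the filter on low values. Of the 10 markers tested, Lyz2 included, 5 were higher and 5 lower in M1 vs Mock, and 2 higher and 8 lower in I vs M1. Among all genes tested 30.5% were called higher and 55.3% lower in M1 vs Mock, and 24.9% and 39.3% in I vs M1. Of 6 endothelial markers, a cell type known for high KLF2 and KLF4, 3 are in the files, with sums of 3.47 to 3.62 FPKM in I, 1.59 to 2.05 in M1 and 0.163 to 0.194 in Mock. Nearly all of that is Pecam1, which leukocytes also make, while Kdr and Vwf were at or below 0.0627 FPKM on average in every group. None of the 6 fibroblast and 4 epithelial markers was analysed here, and of 6 lymphocyte markers only Lck was, at a level of 3.29 to 5.26 FPKM over all libraries. Relative to library total, the median of the 11156 genes tested fell by 0.23 on the log2 scale in M1 vs Mock and by 0.30 in I vs Mock, so a gene that keeps pace with the others appears lower in the polarized groups.

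Klf6 was by far the most abundant member in each group by FPKM. Its level was 136, 134 and 142 FPKM in I libraries, 111, 104 and 107 in M1 and 41.7, 43.9 and 42.5 in Mock. The groups did not overlap for any pair. Klf6 made up 79.8% ± 0.74 of the summed FPKM of the 10 members in I, 78.2% ± 0.63 in M1 and 43.8% ± 1.2 in Mock (SD, n = 3 each). The other 9 members together summed to 34.7 ± 1.3 FPKM in I, 29.9 ± 0.14 in M1 and 54.7 ± 1.3 in Mock. Klf13, Klf7 and Klf16 came next in Mock, with overlapping ranges between 9.1 and 10.1 FPKM, and Klf9, Klf10, Klf4, Klf2, Klf3 and Klf11 followed in that order with no overlap between neighbours. In M1 the order after Klf6 was Klf13 and Klf7, which overlapped, then Klf16 and Klf9, which also overlapped, then Klf10, then Klf2 and Klf4 at nearly equal levels, and last Klf11 and Klf3. In I, Klf13, Klf7, Klf16 and Klf9 followed Klf6, the last pair overlapping, and Klf4 stood above Klf10 and Klf2, which overlapped, and above Klf11 and Klf3, which also overlapped.

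**Figure D1:**
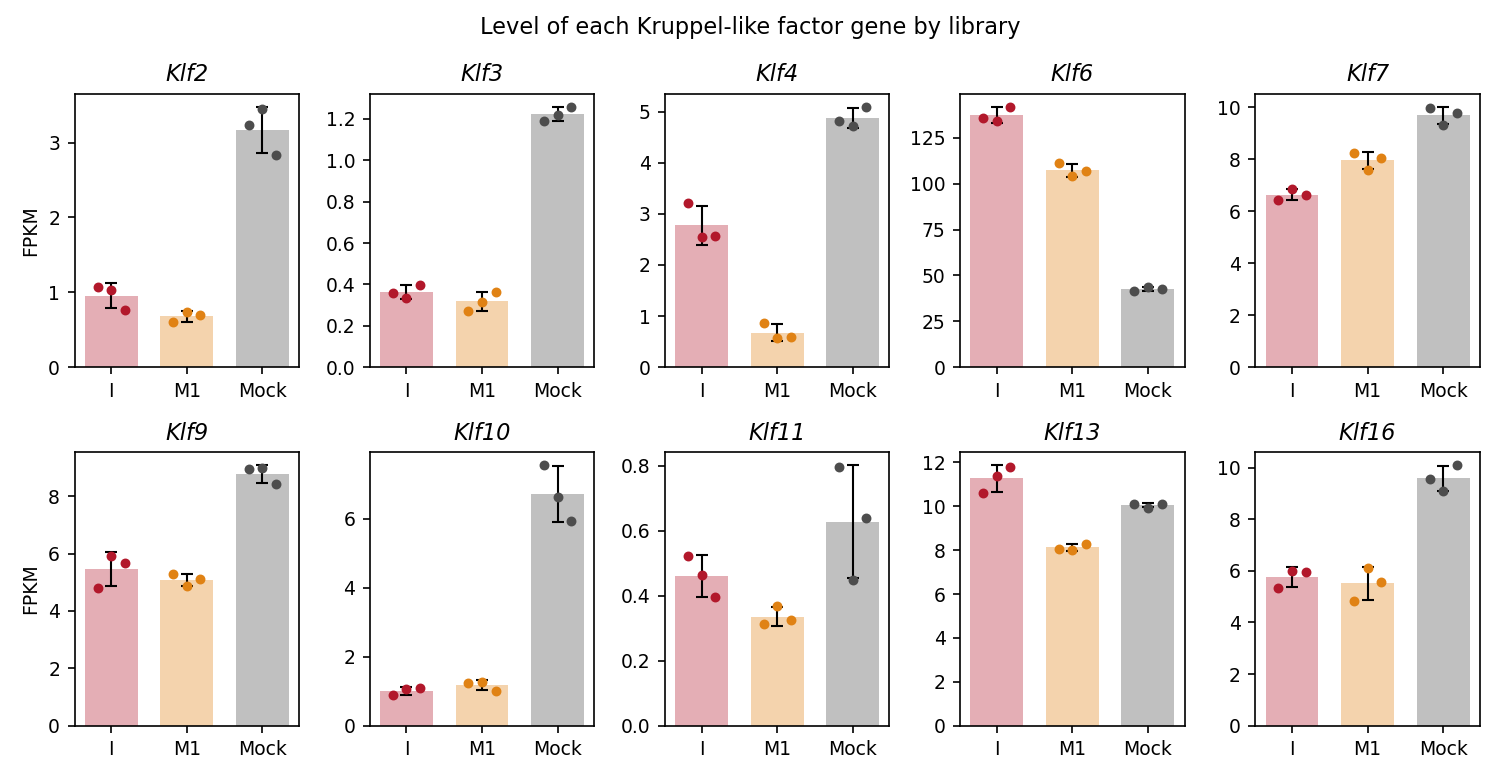
FPKM of the 10 Kruppel-like factor genes in groups I, M1 and Mock, with a point per library, bars at the group mean and error bars of 1 SD (n = 3). Klf6 is highest in I and lowest in Mock, Klf10 is low in I and M1, and Klf4 in I lies between M1 and Mock.

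The first comparison asks how polarization with LPS and interferon gamma changed the family. In M1, 9 of the 10 members were lower and Klf6 was higher than in Mock, at an adjusted p under 0.05 in limma fitted over all genes. The 9 include Klf3, which passed the filter only through the Mock libraries. Among all genes tested 55.3% were called lower and 30.5% higher, 85.8% in all, so a call by itself sets few genes apart in this comparison. The median log2 fold change of the members was −0.69, and that of all genes −0.23. The falls ranged from a ratio of 0.822 for Klf7 to 0.139 for Klf4. With median-of-ratios (RLE) scaling, which centres the median gene near 0, 7 members were lower, Klf6 higher and 2 not called, and the members' median was −0.42. Among all genes tested with that scaling 41.7% were called lower and 43.9% higher, and their median was 0.025.

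Klf4 and Klf2 had deep falls. Klf4 was at 0.874, 0.57 and 0.591 FPKM in M1, against 4.82, 4.72 and 5.1 in Mock. Every M1 library lay far below every Mock library, and the M1 mean was 13.9% of the Mock mean (log2 fold change −1.81 ± 0.086 SE, adjusted p = 3.1e-09). These levels rest on 53, 38 and 32 fragments in M1, against 374, 251 and 314 in Mock. Klf2 was at 0.599, 0.743 and 0.701 FPKM in M1, against 3.23, 3.45 and 2.84 in Mock. That is 21.4% of the Mock mean, again with no overlap (−1.31 ± 0.078 SE, adjusted p = 2.36e-08). It rests on 22, 30 and 23 fragments in M1, against 152, 111 and 106 in Mock. As these are bulk RNA values, fewer cells with the transcript and less RNA per cell cannot be told apart. The log2(FPKM + 1) scale understates such low genes: limma-voom on the recovered fragments gave −2.86 for Klf4 and −2.20 for Klf2.

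Klf10, the TGF-beta-inducible repressor, fell about as far as Klf4 on that scale. It was at 1.25, 1.26 and 1.01 FPKM in M1, against 7.55, 6.63 and 5.94 in Mock (−1.82 ± 0.082 SE, adjusted p = 2.08e-09). The M1 libraries were close together and far below the more spread Mock libraries. Only 363 of the 11156 genes tested had a log2 fold change as low as that of Klf10 or lower, and 373 as low as that of Klf4. With a pseudocount of 0.1 the counts were 370 for Klf10 and 254 for Klf4. Klf11, its close relative, was weakly expressed, at 0.313, 0.369 and 0.324 FPKM in M1, against 0.796, 0.449 and 0.639 in Mock (−0.28 ± 0.077 SE, adjusted p = 0.0054). It rests on 25 to 35 fragments in M1, against 34 to 88 in Mock, and it passed the filter through Mock replicates 1 and 3 and I replicate 1 alone. The groups did not overlap and the M1 mean was 53.4% of the Mock mean, but the call was lost with TMM scaling (adjusted p = 0.0516).

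The CtBP-recruiting repressor Klf3 was at 0.273, 0.317 and 0.365 FPKM in M1, against 1.19, 1.22 and 1.26 in Mock (−0.76 ± 0.053 SE, adjusted p = 9.19e-08). The 3 Mock libraries were the only ones in which Klf3 reached the filter level of 0.5 FPKM, so it entered the test only through the group in which it is high. It was also called with no filter. The M1 mean of Klf3 was 26% of its Mock mean, a deeper fall than the log2(FPKM + 1) value shows. For Klf3, limma-voom on fragments gave −1.955, against −0.793 for Klf9 and −0.801 for Klf16. Of its 11243 exon bases, 404 are shared with the antisense gene Gm20033, whose reads could not be told apart without strand information. The glucocorticoid-responsive Klf9 was at 5.28, 4.86 and 5.12 FPKM in M1, against 8.94, 8.98 and 8.43 in Mock (−0.68 ± 0.063 SE, adjusted p = 1.12e-06). Klf16, another SIN3-binding repressor, was at 4.85, 6.12 and 5.58 FPKM in M1, against 9.54, 9.1 and 10.1 in Mock (−0.70 ± 0.072 SE, adjusted p = 2.75e-06). Neither gene overlapped between the groups, and the M1 mean was 57.9% of the Mock mean for Klf9 and 57.7% for Klf16.

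Klf13 and Klf7 changed least, and their direction depends on the scaling. Klf13 was at 8.07, 8.01 and 8.28 FPKM in M1, against 10.1, 9.93 and 10.1 in Mock. Its log2 fold change of −0.28 ± 0.041 SE (adjusted p = 6.48e-05) became 0.01 with RLE (adjusted p = 0.866) and 0.02 with TMM scaling (adjusted p = 0.689). Klf7 was at 8.24, 7.6 and 8.05 FPKM in M1, against 9.96, 9.31 and 9.79 in Mock. Its log2 fold change of −0.25 ± 0.043 SE (adjusted p = 0.000193) became 0.03 with RLE (adjusted p = 0.527) and 0.04 with TMM scaling (adjusted p = 0.398). Relative to the median gene the changes were −0.04 for Klf13 and −0.02 for Klf7. Klf7 shares 3196 of its 8131 exon bases with the antisense gene Gm26649, so its level is uncertain if strand was not used in counting.

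Klf6, the member known to promote inflammatory genes, went the other way. Its M1 mean was 2.52 times its Mock mean (log2 fold change 1.31 ± 0.034 SE, adjusted p = 2.06e-11), and 1.62 with RLE scaling. It rests on 8350 to 9992 fragments in M1, against 3359 to 4662 in Mock. There were 456 genes with a log2 fold change at least as high, and 674 with a pseudocount of 0.1.

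**Figure D2:**
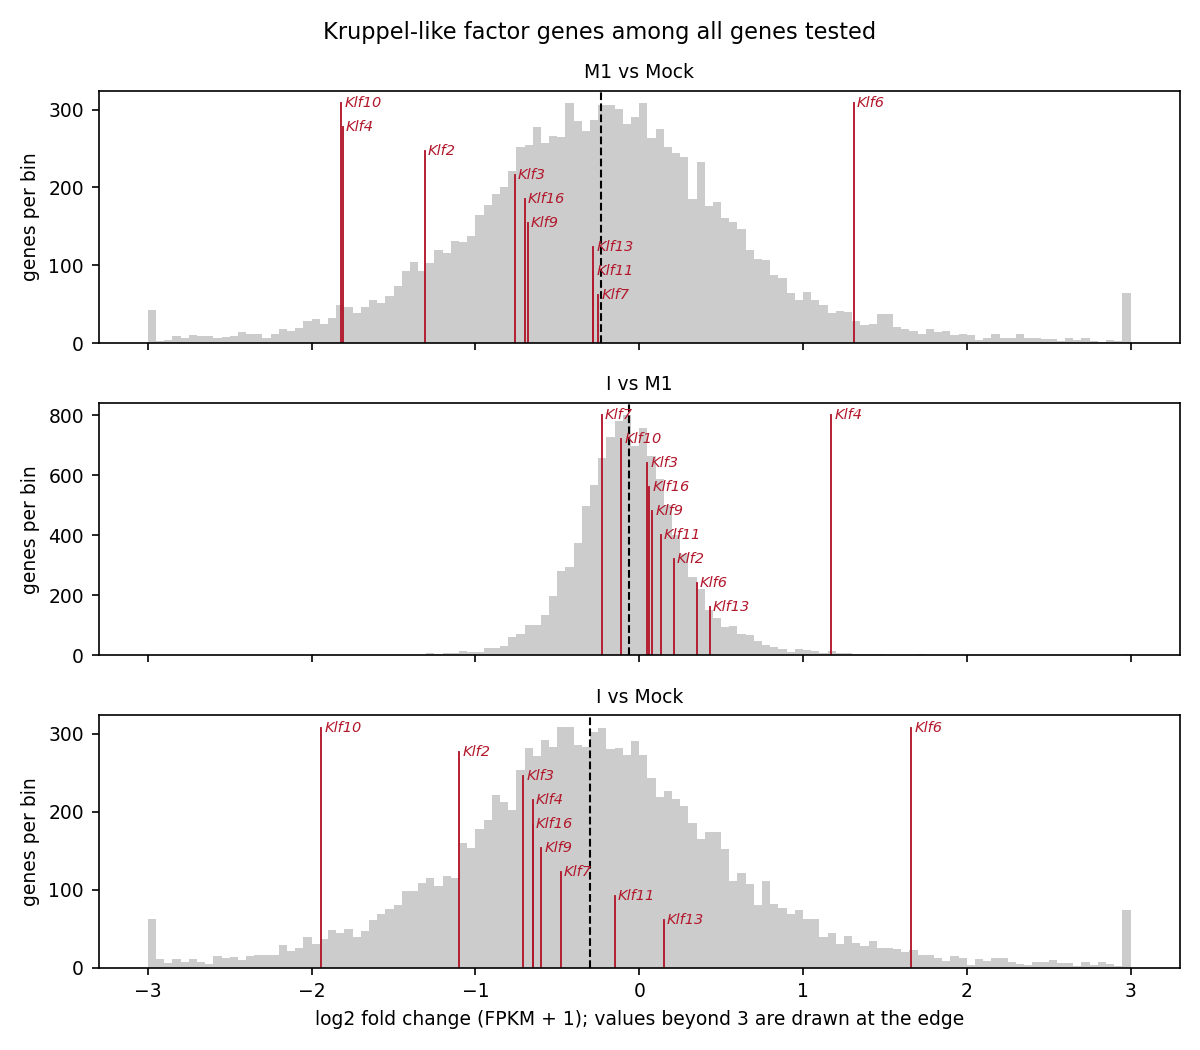
Histograms of the log2 fold change of all 11156 genes tested, with panels for M1 vs Mock, I vs M1 and last I vs Mock, a dashed line at the median gene and a red line per Kruppel-like factor gene. The height of the red lines has no meaning. Klf4, Klf10 and Klf6 lie in the tails in M1 vs Mock, and Klf4 lies in the right tail in I vs M1.

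**Figure D3:**
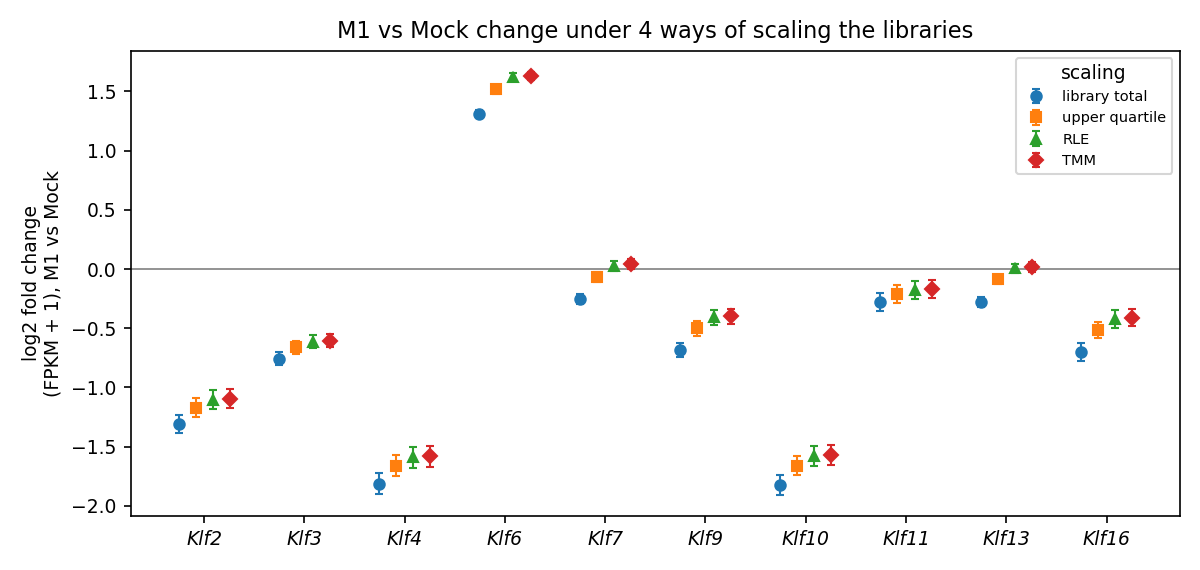
Log2 fold change in M1 vs Mock for each member (error bars are 1 SE) with scaling by library total, upper quartile, RLE and TMM. Klf7 and Klf13 sit below 0 with library totals and slightly above 0 with RLE and TMM, and the other 8 members keep their direction.

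The second comparison asks what potassium iodide added to polarization, with M1 as its reference. In I, 4 of the 10 members were higher than in M1 (Klf2, Klf4, Klf6 and Klf13), Klf7 was lower and 5 were not called. Among all genes tested 24.9% were called higher and 39.3% lower, 64.2% in all. The median log2 fold change was 0.11 for the members and −0.07 for all genes. The split of 4 and 1 was the same with RLE, TMM and upper quartile scaling. With RLE the shares among all genes tested were 30.6% higher and 32.6% lower. M1 libraries serve in both this comparison and the first, so the values below are given side by side only.

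Klf4 had the largest change of the family with iodide. It was at 3.22, 2.54 and 2.56 FPKM in I, against 0.874, 0.57 and 0.591 in M1. Each I library was well above each M1 library, and the ratio of the means was 4.09 (log2 fold change 1.17 ± 0.086 SE, adjusted p = 8.04e-07). The fragments behind it were 208, 142 and 150 in I, against 53, 38 and 32 in M1, and limma-voom on fragments gave 2.06 ± 0.19 SE (adjusted p = 6.07e-12). On the log2(FPKM + 1) scale 67 of the 11156 genes had a value as high as Klf4 or higher. With a pseudocount of 0.1 there were 39. The level in I still lay under that of Mock, at 56.8% of the Mock mean. Pecam1, the endothelial marker that leukocytes share, was also higher in I, at 3.46 ± 0.087 FPKM, against 1.69 ± 0.24 in M1 and 0.0729 ± 0.017 in Mock. The other 2 in the files were near 0, with Kdr at 0.00933 FPKM in I, against 0.0206 in M1, and Vwf at 0.0528 in I, against 0.0391 in M1.

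Klf13 and Klf6 rose by smaller amounts. Klf13 was at 10.6, 11.4 and 11.8 FPKM in I, against 8.07, 8.01 and 8.28 in M1 (log2 fold change 0.43 ± 0.041 SE, adjusted p = 6.29e-06). The I libraries were all above the M1 libraries, by a ratio of 1.39. Klf6 rose by a ratio of 1.28 (0.35 ± 0.034 SE, adjusted p = 5.98e-06), on top of its high level in M1. Klf7 fell. It was at 6.42, 6.86 and 6.64 FPKM in I, against 8.24, 7.6 and 8.05 in M1 (−0.23 ± 0.043 SE, adjusted p = 0.000785).

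The rise of Klf2 with iodide was marginal. Klf2 was at 1.07, 1.03 and 0.76 FPKM in I, against 0.599, 0.743 and 0.701 in M1 (0.21 ± 0.078 SE, adjusted p = 0.0322). The lowest I library exceeded the highest M1 library by little, on 42, 35 and 27 fragments in I, against 22, 30 and 23 in M1. The call was lost with limma-voom on fragments (adjusted p = 0.0967). It was also lost without M1 replicate 1 (adjusted p = 0.104), M1 replicate 3 (adjusted p = 0.0572), I replicate 1 (adjusted p = 0.111) or I replicate 2 (adjusted p = 0.0973). Klf2 and Klf4 stood at nearly equal levels in M1, 0.681 ± 0.074 and 0.678 ± 0.17 FPKM, whereas in I they were at 0.955 ± 0.17 and 2.77 ± 0.39 FPKM (SD, n = 3 each).

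The other 5 members were not called between I and M1, which does not show that they were equal. Klf10 was at 0.88, 1.06 and 1.09 FPKM in I, overlapping M1, with a log2 fold change of −0.11 ± 0.082 SE (adjusted p = 0.255). Klf9 was at 4.81, 5.9 and 5.68 FPKM in I (0.08 ± 0.063 SE, adjusted p = 0.272). It was called higher without I replicate 1, its lowest library of that group (0.16, adjusted p = 0.0196). Klf16 was at 5.33, 5.99 and 5.97 FPKM in I (0.06 ± 0.072 SE, adjusted p = 0.512) and Klf3 at 0.357, 0.334 and 0.398 (0.05 ± 0.053 SE, adjusted p = 0.444), both overlapping M1. Klf11 was at 0.522, 0.464 and 0.395 FPKM in I, just above the M1 libraries (0.13 ± 0.077 SE, adjusted p = 0.168). Its ratio of means was 1.37, on 48, 37 and 33 fragments in I. For this low gene limma-voom on fragments gave 0.455 ± 0.25 SE (adjusted p = 0.113).

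**Figure D4:**
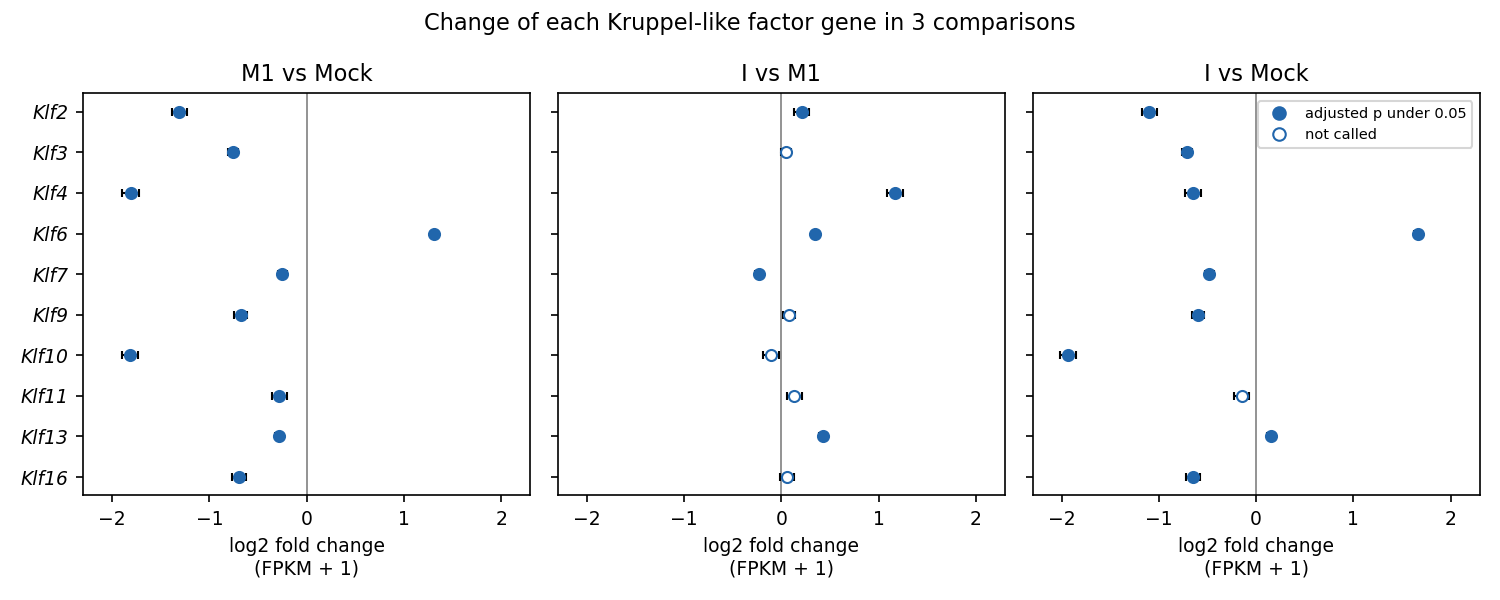
Log2 fold change on the log2(FPKM + 1) scale of the 10 members in M1 vs Mock (left), I vs M1 (middle) and I vs Mock (right). Error bars are 1 SE. Filled points have an adjusted p under 0.05 and open points do not. In I vs M1, Klf4 stands apart at 1.17 and the others lie between −0.23 and 0.43.

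The third comparison sets polarization with iodide against Mock. In I, 2 members were higher (Klf6 and Klf13), 7 were lower and Klf11 was not called (adjusted p = 0.0852). The 7 include Klf3, which passed the filter only through the Mock libraries. Among all genes tested 28.2% were called higher and 58.6% lower, 86.8% in all. Klf6 had a log2 fold change of 1.66 ± 0.034 SE and a ratio of 3.22 (adjusted p = 2.91e-12). Klf13 exceeded Mock by a ratio of 1.12 (0.15 ± 0.041 SE, adjusted p = 0.00533), and RLE scaling gave a log2 fold change of 0.50. Klf10 was lowest relative to Mock, at 15.1% of the Mock mean (−1.94 ± 0.082 SE, adjusted p = 1.13e-09). Klf3 was at 29.6% and Klf2 at 30.1% of the Mock mean, and Klf4, Klf16 and Klf9 were at 56.8%, 60.2% and 62.2%. The log2 fold change of Klf4 was −0.65 ± 0.086 SE (adjusted p = 2.48e-05), and −0.34 with RLE scaling (adjusted p = 0.00363). Klf7 was at 68.5% of the Mock mean (−0.48 ± 0.043 SE, adjusted p = 7.73e-07), and at −0.14 with RLE scaling (adjusted p = 0.00777). Klf11 was called lower without Mock replicate 2, its lowest Mock library (−0.23, adjusted p = 0.00881). It was not called without Mock replicate 1 (−0.079, adjusted p = 0.329), and RLE scaling gave −0.019 (adjusted p = 0.816).

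The partners of these factors were described from lists of related genes, to be read against all genes tested. Of those, 30.5% were called higher and 55.3% lower in M1 vs Mock (43.9% and 41.7% with RLE scaling), and 24.9% higher and 39.3% lower in I vs M1 (30.6% and 32.6% with RLE). Their median log2 fold change was −0.23 in M1 vs Mock and −0.07 in I vs M1. KLF2 is known to compete with NF-kB for some acetyltransferase coactivators. All 4 listed genes of this class were lower in M1 than in Mock, with a median log2 fold change of −0.88. For I vs M1 the count was 2 higher and 1 lower and the median 0.16 (3 and 1 with RLE scaling). Kat2a was at 3.25 ± 0.28 FPKM in I, 5.9 ± 0.2 in M1 and 27.7 ± 0.73 in Mock. It fell in M1 vs Mock (−2.06 ± 0.051 SE, adjusted p = 1.61e-11) and again in I vs M1 (−0.70 ± 0.051 SE, adjusted p = 7.5e-07). Kat2b, which encodes PCAF, was at 8.4 ± 0.21 FPKM in I, 7.29 ± 0.11 in M1 and 12.4 ± 0.19 in Mock. Ep300, which encodes p300, was at 9.26 ± 0.36 FPKM in I, 6.87 ± 0.15 in M1 and 13.8 ± 0.41 in Mock, and rose in I vs M1 (0.38 ± 0.039 SE, adjusted p = 1.02e-05).

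In the MEK5, ERK5 and MEF2 module, which is known to drive Klf2 and Klf4 in endothelial cells, 2 of 7 genes were higher and 4 lower in M1 vs Mock, and 0 higher and 3 lower in I vs M1, with medians of −0.17 and −0.14. With RLE scaling the first split turned to 4 higher and 2 lower. Mef2c was at 3.77 ± 0.2 FPKM in I, 5.41 ± 0.18 in M1 and 17.5 ± 0.58 in Mock (M1 vs Mock −1.53 ± 0.044 SE, adjusted p = 5.39e-11, and I vs M1 −0.43 ± 0.044 SE, adjusted p = 1.11e-05). Mef2a was at 6.21 ± 0.37 FPKM in I, 6.61 ± 0.22 in M1 and 13.5 ± 0.25 in Mock. The kinase gene Map3k3, upstream in the module, was at 29.7 ± 0.8 FPKM in I, 33.9 ± 0.69 in M1 and 22.3 ± 0.44 in Mock. It was higher in M1 than in Mock (0.58 ± 0.03 SE, adjusted p = 6.83e-09). Mef2d was at 16.5 ± 0.11 FPKM in I, 22.3 ± 1 in M1 and 25.4 ± 0.36 in Mock, and was lower in I than in M1 (−0.41 ± 0.035 SE, adjusted p = 2.45e-06). Its fall in M1 vs Mock (−0.18) turned to a rise with RLE scaling (0.12, adjusted p = 0.00686).

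Of 9 genes of TGF-beta signalling, 3 were higher and 5 lower in M1 vs Mock, and 3 and 3 in I vs M1. The M1 vs Mock split was near that of all genes, and the median log2 fold change was −0.45 in M1 vs Mock and −0.04 in I vs M1. The receptor gene Tgfbr1 was at 1.61 ± 0.18 FPKM in I, 1.06 ± 0.079 in M1 and 4.28 ± 0.075 in Mock. Skil, a SMAD-binding repressor gene, was at 5.26 ± 0.23 FPKM in I, 2.39 ± 0.1 in M1 and 7.62 ± 0.23 in Mock, so that it fell in M1 vs Mock (−1.34 ± 0.046 SE, adjusted p = 2.13e-10) and rose in I vs M1 (0.88 ± 0.046 SE, adjusted p = 6.38e-08). Smad3 was at 0.761 ± 0.0045 FPKM in I, 1.82 ± 0.068 in M1 and 3.3 ± 0.19 in Mock. The ligand gene Tgfb1 was at 47.1 ± 2 FPKM in I, 61 ± 3.1 in M1 and 43.9 ± 0.9 in Mock.

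Among 13 genes of the SIN3 corepressor complex, 4 were higher and 8 lower in M1 vs Mock (6 and 7 with RLE scaling), and 4 and 4 in I vs M1 (7 and 2 with RLE). This split too was near that of all genes in M1 vs Mock, and the median log2 fold change was −0.44 in M1 vs Mock and 0.08 in I vs M1. The histone-binding subunit gene Rbbp7 was at 14.2 ± 0.33 FPKM in I, 19.8 ± 0.9 in M1 and 61.2 ± 2.5 in Mock. The deacetylase gene Hdac2 was at 7.92 ± 0.33 FPKM in I, 10.2 ± 0.43 in M1 and 23.8 ± 0.25 in Mock. Of 6 CtBP corepressor genes, 0 were higher and 4 lower in M1 vs Mock (2 and 4 with RLE), and 2 and 2 in I vs M1, with medians of −0.53 and 0.02. Ctbp1 was at 11.3 ± 0.55 FPKM in I, 13.1 ± 0.88 in M1 and 29.6 ± 0.25 in Mock, while Ctbp2 was at 8.14 ± 0.15 FPKM in I, 9.3 ± 0.095 in M1 and 9.44 ± 0.39 in Mock. Of the 4 tested genes of the related Sp family, 0 were higher and 2 lower in both M1 vs Mock and I vs M1, although with RLE scaling 2 were higher and 2 lower in M1 vs Mock. The medians were −0.26 and −0.12. Sp2 was at 2.61 ± 0.093 FPKM in I, 3.72 ± 0.32 in M1 and 5.49 ± 0.25 in Mock, with calls in both comparisons.

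Of the glucocorticoid receptor gene and 5 of its targets, 4 were higher and 2 lower in M1 vs Mock (4 and 1 with RLE), and 3 and 2 in I vs M1, with medians of 0.50 and 0.06. Dusp1, a MAP kinase phosphatase gene, was at 19.5 ± 0.94 FPKM in I, 15.4 ± 0.22 in M1 and 2.52 ± 0.29 in Mock. Sgk1, a kinase gene, was at 3.28 ± 0.2 FPKM in I, 1.13 ± 0.18 in M1 and 5.19 ± 0.17 in Mock. Like Klf4 it fell in M1 vs Mock (−1.54 ± 0.066 SE, adjusted p = 1.29e-09) and rose in I vs M1 (1.01 ± 0.066 SE, adjusted p = 3.32e-07). Fkbp5 was at 8.03 ± 0.14 FPKM in I, 11.9 ± 0.14 in M1 and 7.68 ± 0.35 in Mock.

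Of 6 genes reported as KLF targets in other cells 4 are in the files, with 3 higher and 1 lower in M1 vs Mock and 2 higher and 1 lower in I vs M1, and medians of 0.87 and 0.15. Ccl5, the chemokine gene tied to KLF13 in T lymphocytes, was at 534 ± 21 FPKM in I, 1120 ± 27 in M1 and 36.1 ± 4.2 in Mock. It was lower in I than in M1 (−1.07 ± 0.065 SE, adjusted p = 2.01e-07), while Klf13 was higher. S1pr1, a sphingosine 1-phosphate receptor gene under KLF2 in T lymphocytes, was at 0.376 ± 0.035 FPKM in I, 0.324 ± 0.06 in M1 and 2.05 ± 0.11 in Mock. It fell in M1 vs Mock (−1.20 ± 0.057 SE, adjusted p = 3.12e-09). Only Mock libraries reached the filter level of 0.5 FPKM, so S1pr1 entered the test only through the group in which it is high. Cdkn1a was at 434 ± 6.4 FPKM in I, 364 ± 11 in M1 and 128 ± 4.3 in Mock. Hif1a was at 65.2 ± 1.2 FPKM in I, 50.2 ± 1.9 in M1 and 42.4 ± 1.9 in Mock.

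Klf10, Klf4 and Klf6 were the members with the widest range of group means on the log2(FPKM + 1) scale, and the genes most like Klf10 and Klf6 were found by Pearson's r of log2(FPKM + 1) over the 9 libraries, among genes that reach a mean of 10 FPKM in their highest group. With 9 libraries in 3 groups such an r mostly reflects the 3 group means. Nearest to Klf10 were Gnl2 (r = 0.9986), Josd1 (0.9976) and Zc3h18 (0.9972). Gnl2 was at 10.2 ± 0.24 FPKM in I, 10.6 ± 0.48 in M1 and 25.7 ± 0.91 in Mock. Nearest to Klf6 were Saraf (0.9993), Tmx4 (0.9993) and the glycerol kinase gene Gk (0.9991). Gk was at 53.6 ± 0.68 FPKM in I, 42.4 ± 1.1 in M1 and 16.9 ± 0.25 in Mock.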

How the data were processed

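Poly(A) RNA of 9 RAW264.7 libraries was sequenced, per the labels' protocols. The deposited values are FPKM, a unit read from the values since no header names it. GRCm38, fastp 0.20.1, HISAT2 2.2.1 and featureCounts 2.0.1 (Subread) are named in the submitters' processing notes, while settings, annotation and whether strand was used are not stated there. All rows are above 0 in every library, and a gene listed at 0 anywhere was not analysed here. The members and lists were chosen with earlier results of these data known. Exon lengths from GENCODE matched 97.8% of rows, and the product of FPKM and length came in steps of 1 fragment (within 0.05) for 98.4% to 98.6% of a library's values, which gave fragments and library totals.

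Design tables planned for either counts or a normalized unit, so limma 3.58.1 in R 4.3.3 was run on log2(FPKM + 1) over rows with at least 0.5 FPKM in at least 3 libraries (11156 kept, 1318 removed), with 1 model over all 9 libraries, a term per group and an intensity trend. Fold changes on that scale understate low genes. Adjusted p-values are Benjamini-Hochberg over all rows tested. The genes named are all members and, per list, up to 3 with the smallest p in M1 vs Mock and in I vs M1, of which part is printed, a part chosen with the values in view. The genes that the likeness rule takes for Klf4 are not reported here. The model was checked on simulated data. Alternatives were other scalings, a pseudocount of 0.1, no filter and a minimum of 5 FPKM, 2-group fits, a replicate block, limma-voom on recovered fragments of 10762 genes, and leaving out each library.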

Additional observations from a re-analysis of the deposited data

How the results depend on the processing

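The counts of members called (10 in M1 vs Mock, 5 in I vs M1, 9 in I vs Mock) stayed within 1.5 times under all alternatives except a minimum of 5 FPKM, which leaves 6 members to test and gave 6 called in M1 vs Mock and 3 in I vs M1. Of 528 recomputed fold changes of single members, 513 kept direction and call. In M1 vs Mock, Klf7 turned to 0.029 with RLE and 0.039 with TMM scaling, and Klf13 to 0.007 and 0.017. With upper quartile scaling both lost their call (adjusted p = 0.177 and 0.0634). In I vs M1, Klf16, not called, turned to −0.02 without M1 replicate 1 and ranged up to 0.123 without other libraries. Leaving out each library in turn gave 10 members called each time in M1 vs Mock, 4 to 5 in I vs M1 and 9 to 10 in I vs Mock. With the replicate number as a block, 10, 5 and 9 members were called, so the block changed no member's call. Same-numbered libraries had deviations correlated at −0.12 to 0.05 across genes, so the numbers were not taken as pairing libraries. DESeq2 was not run because the files hold no counts. Depth limits Klf2, Klf3, Klf4 and Klf11 most, with 22 to 78 fragments per library in M1.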

Other observations

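Besides the 10 members, Klf8 and Klf1 have rows in the files. Klf8, which encodes a CtBP-binding repressor, was at 1.67, 1.79 and 1.58 FPKM in I, 2.39, 2.29 and 2.27 in M1 and 2.63, 2.55 and 2.12 in Mock. It was lower in I than in M1 (log2 fold change −0.31 ± 0.064 SE, limma adjusted p = 0.0015, and −0.27 with RLE scaling), with no overlap between the groups. In M1 vs Mock it was not called with library totals (−0.05, adjusted p = 0.511) and was called higher with RLE scaling (0.17, adjusted p = 0.025). Klf1, the erythroid member, lay below the filter, with 3, 10 and 12 fragments in I, 4, 7 and 4 in M1 and 1, 5 and 6 in Mock. Klf5, Klf12, Klf14, Klf15 and Klf17 were not analysed here.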
